A study of Rattus norvegicus with 6 samples.

Results

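The 10 genes described here belong to inflammatory and lytic cell death, and their messenger RNA was followed in liver tissue of rats embolized with zinc sulfide microspheres (GZM) and with blank microspheres (GM). They were chosen by gene symbol and comprise the inflammasome sensor Nlrp3, its adaptor Pycard, the caspases Casp1 and Casp4, the pore protein gene Gsdmd, the cytokine genes Il1b and Il18, and the necroptosis genes Ripk1, Ripk3 and Mlkl. All 10 symbols matched 1 row each of the 32623 genes in the table, and all 10 passed the filter on low counts in a set of 14298 tested genes. Messenger RNA was measured by bulk sequencing of 6 libraries, 3 GZM and 3 GM. Embolization cuts off the blood supply of a target tissue, and the title of the study sets the work in hepatocellular carcinoma. The GZM group received microspheres carrying zinc sulfide and the GM group, the control, received microspheres without it, so that both groups were embolized. The labels call every sample liver and do not give the strain, age or sex of the rats, the time after embolization, or whether a piece held tumour. They number the samples within a group without saying that they came from separate animals, and the p-values below therefore speak of the spread among these libraries, which may be technical.

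An inflammasome is a protein platform built in response to microbes or cell damage. In it a sensor such as NLRP3 recruits the adaptor ASC, the product of Pycard, which recruits and activates caspase-1. Caspase-1 cleaves the precursors of interleukin-1 beta and interleukin-18 and also cleaves gasdermin D, whose freed end forms pores in the plasma membrane and leads to pyroptosis. Caspase-4, called caspase-11 in rodents, senses bacterial lipopolysaccharide inside the cell and cleaves gasdermin D directly. Necroptosis is a separate lytic death, in which the kinase RIPK1 engages RIPK3, RIPK3 phosphorylates the pseudokinase MLKL, and MLKL breaks the plasma membrane. In liver, inflammasome genes are known mainly from macrophages and other leukocytes, whereas hepatocytes are known to hold little RIPK3. All of these proteins are regulated by cleavage or phosphorylation, which messenger RNA does not report.

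Gene counts summed to between 13443115 and 16604067 per library. The factors that edgeR's TMM method gave to scale the libraries differed between the groups and ran from 0.715 to 0.793 in GZM and from 1.17 to 1.43 in GM. Levels are given below as CPM, counts scaled to library size, on this TMM scale, and fold changes on the TMM scale unless library totals are named. The median log2 fold change of all tested genes was -0.09 on the TMM scale and -0.92 with library totals, so that the choice of scale moves the median by 0.83. The liver label was matched by hepatocyte markers, whose summed level was 139178 to 164994 CPM in GZM and 16346 to 58425 CPM in GM over the 14 markers found of 15 listed. On the TMM scale, 13 of those markers were higher in GZM and none was lower. The first principal component held 76.9% of the variance and separated the groups, with GM 3 nearest to the GZM libraries.

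Most of the 10 genes were lower in GZM, with Gsdmd the exception on the TMM scale. Of the 10, Casp1, Ripk3, Nlrp3, Pycard and Il1b fell, Gsdmd rose, and Casp4, Il18, Ripk1 and Mlkl did not pass (threshold 0.05 on the Benjamini-Hochberg adjusted p of edgeR's quasi-likelihood fit). These 5 falls and 1 rise stand beside a background in which 44% of all tested genes passed, 21.7% lower and 22.2% higher in GZM. The median log2 fold change of the 10 genes was -0.64, against -0.09 over all tested genes, and with library totals -1.47 against -0.92. Levels in GZM and GM did not overlap for 9 of the 10 genes, 8 with GZM below GM and Gsdmd with GZM above. Over all tested genes the groups did not overlap in 58.1%, with GZM lower in 29.7% and higher in 28.4%. With library totals, Casp4, Il18, Ripk1 and Mlkl passed as lower as well, making 9 of 10, beside 59.5% of all tested genes that were then lower. Without GZM 2, 3 of the 10 genes passed, namely Casp1, Nlrp3 and Ripk3, all of them lower in GZM. Calls over all genes dropped as well. They were 2112 higher and 1665 lower of 14843 tested without GZM 2, against 3181 and 3104 of 14298 with all libraries.

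**Figure D1:**
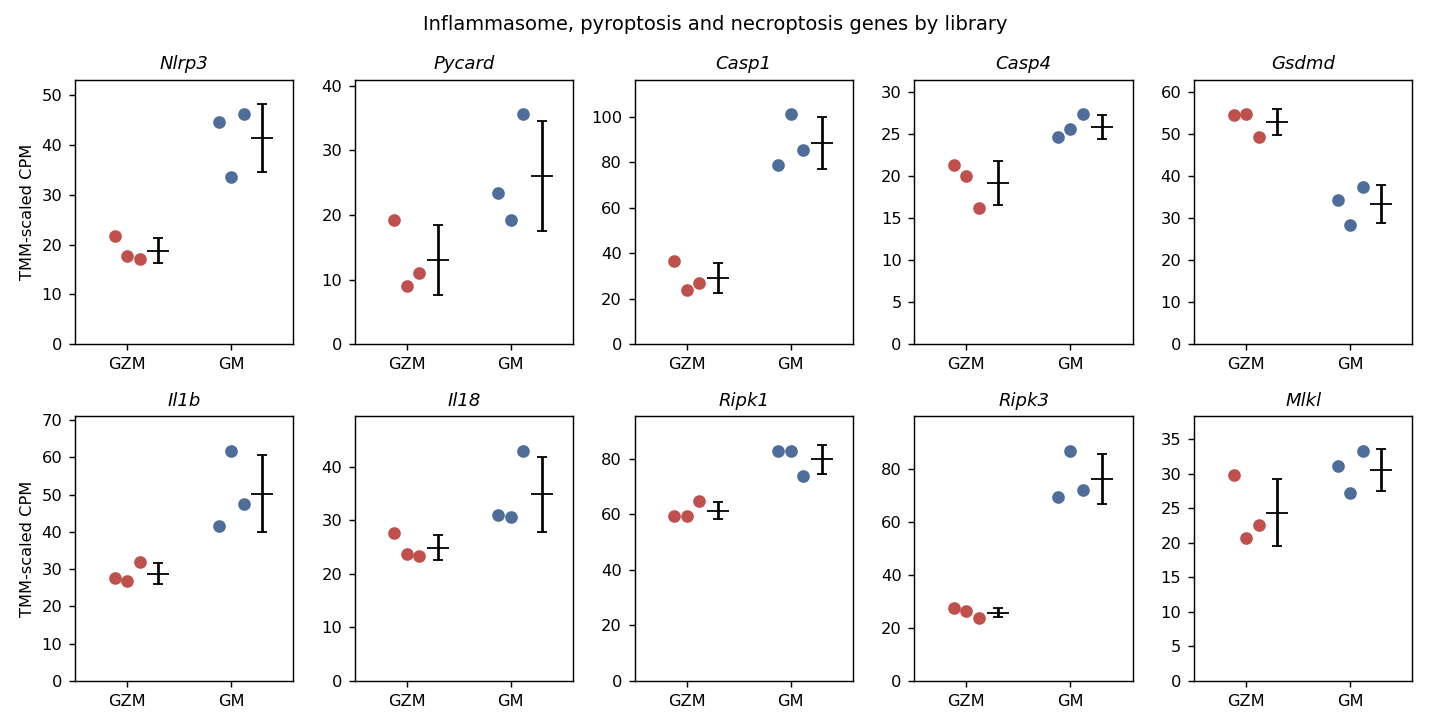
Each panel shows 1 gene, with a point for each library, GZM left and GM right, and beside each group its mean with SD as a bar (n = 3 each). The vertical axis is TMM-scaled CPM and starts at 0. Gsdmd is the only panel with all GZM points above all GM points, and in the Mlkl panel the groups overlap.

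The promoters of the called genes are shown for Casp1, Nlrp3 and Ripk3, the genes that fell in every setting tried, so that the sequence upstream of their start sites can be read beside the values. They are the 250 bases before the start site in RefSeq's annotation of the GRCr8 build, written 5′ to 3′ on the strand of the gene. Of the 10 genes, 8 had an entry, and Casp4 and Gsdmd are named only. The Casp1 window is chr8:10872580-10872829 on the plus strand, that of Nlrp3 is chr10:44827848-44828097 on the plus strand, and that of Ripk3 is chr15:33262026-33262275 on the minus strand. Capitals mark a match to 1 of 3 searched consensus sequences.
Casp1: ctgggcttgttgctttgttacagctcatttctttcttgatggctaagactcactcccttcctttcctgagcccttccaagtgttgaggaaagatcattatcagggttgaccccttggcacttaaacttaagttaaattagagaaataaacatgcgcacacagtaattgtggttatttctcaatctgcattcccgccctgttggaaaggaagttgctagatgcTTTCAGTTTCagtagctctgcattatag
Nlrp3: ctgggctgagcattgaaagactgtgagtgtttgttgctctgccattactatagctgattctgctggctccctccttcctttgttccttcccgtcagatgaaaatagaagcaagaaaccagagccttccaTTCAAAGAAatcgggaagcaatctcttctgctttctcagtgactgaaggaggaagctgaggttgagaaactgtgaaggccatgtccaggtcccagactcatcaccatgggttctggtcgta
Ripk3: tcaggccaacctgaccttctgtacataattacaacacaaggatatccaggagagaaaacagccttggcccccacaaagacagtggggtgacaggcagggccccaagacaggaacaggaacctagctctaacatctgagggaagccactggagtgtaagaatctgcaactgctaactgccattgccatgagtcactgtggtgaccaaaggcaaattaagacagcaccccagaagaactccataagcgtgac

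The searched motifs were the interferon-stimulated response element core (GAAA, any 2 bases, GAAA), the interferon-gamma activated site TTCNNNGAA and the NF-kB consensus, each on both strands. The Casp1 window held the first of these on the opposite strand, from position -28 to -19, counting the base just before the start as -1. This motif occurred in 3.41% of 33469 RefSeq promoters of the same length. The Nlrp3 window held TTCAAAGAA, a match to the second motif on both strands from position -121 to -113, a motif found in 7.67% of promoters. No window of the 8 genes held the NF-kB consensus, which 6.33% of promoters held. The Ripk3 window matched none of the 3 and is printed in lower case throughout. A match describes letters in the window and not a binding site.

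The sensor and its adaptor were both lower in GZM. Nlrp3 (ENSRNOG00000003170), which senses ion fluxes and membrane damage, stood at 21.8, 17.6 and 17.0 CPM in GZM 1, 2 and 3, against 44.7, 33.7 and 46.2 CPM in GM 1, 2 and 3. Every GZM library lay below every GM library. The gene was 2.21-fold lower (log2 fold change -1.14 ± 0.19 SE, edgeR adjusted p = 0.00363), and with library totals -1.97 ± 0.20 (adjusted p = 0.000742). Pycard (ENSRNOG00000019675), the ASC adaptor that links sensor and caspase, stood at 19.15, 8.96 and 11.1 CPM in GZM, against 23.4, 19.19 and 35.6 CPM in GM. Its spread was wide, and GZM 1 and GM 2 nearly touched. It fell by 1.00 on the log2 scale, with an SE of 0.34 and an adjusted p of 0.0451, and with library totals by 1.80 (adjusted p = 0.0019). This call on the TMM scale rested on single libraries: the adjusted p was 0.151 without GZM 2, 0.138 without GZM 3, 0.0811 without GM 1 and 0.115 without GM 3. The ratio of Nlrp3 to Pycard, in counts per base, was 0.254, 0.44 and 0.344 in GZM and 0.427, 0.392 and 0.29 in GM, and the groups overlapped.

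The inflammatory caspases differed in how far they moved. Casp1 (ENSRNOG00000007372), the protease that matures interleukin-1 beta and interleukin-18, stood at 36.6, 23.8 and 27.0 CPM in GZM, against 78.7, 101 and 85.4 CPM in GM. The highest GZM library was below the lowest GM library. Casp1 was 3.04-fold lower (log2 fold change -1.60 ± 0.20 SE, adjusted p = 0.0023), and 7.74% of tested genes had a lower fold change. With library totals the value was -2.44 ± 0.24 (adjusted p = 0.000742). Casp4 (ENSRNOG00000033697), listed with the synonym Casp11 in RefSeq, stood at 21.3, 20.0 and 16.3 CPM in GZM, against 24.6, 25.6 and 27.3 CPM in GM. The groups did not overlap, but the difference was small and missed the threshold (adjusted p = 0.0689, log2 fold change -0.43 ± 0.17 SE). With library totals it passed (-1.27 ± 0.18, adjusted p = 0.00107). The ratio of Casp1 to Casp4 per base, which does not depend on the scaling, was on average 1.22 ± 0.233 in GZM and 2.73 ± 0.363 in GM. Each is the mean and SD of 3 libraries, and the groups were separate. This ratio is a description with no test, and the share of all genes separated by such a ratio was not counted. Both genes lie on chromosome 8 on the plus strand, Casp1 from 2604962 to 2614631 and Casp4 from 2635851 to 2651652 in the positions of the deposited table, and no other gene of the table overlaps either.

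The pore gene Gsdmd went the other way from Casp1 on the TMM scale. Gsdmd (ENSRNOG00000007728) stood at 54.6, 54.7 and 49.3 CPM in GZM, against 34.4, 28.4 and 37.4 CPM in GM. All GZM libraries were above all GM libraries, with a fold change of 1.58 (log2 0.66 ± 0.15 SE, adjusted p = 0.0111). This direction belongs to the TMM scale: with library totals the log2 fold change was -0.17 ± 0.16 (adjusted p = 0.373), where the level was 39.5 ± 0.806 CPM of the library total in GZM, against 44.4 ± 4.38 in GM (SD; 3 libraries a group). On either scale it lay above the median of all tested genes given above. The call on the TMM scale was also lost without GZM 2 (adjusted p = 0.0524). The gene lies on chromosome 7, from 116889572 to 116894134 in the positions of the deposited table.

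**Figure D2:**
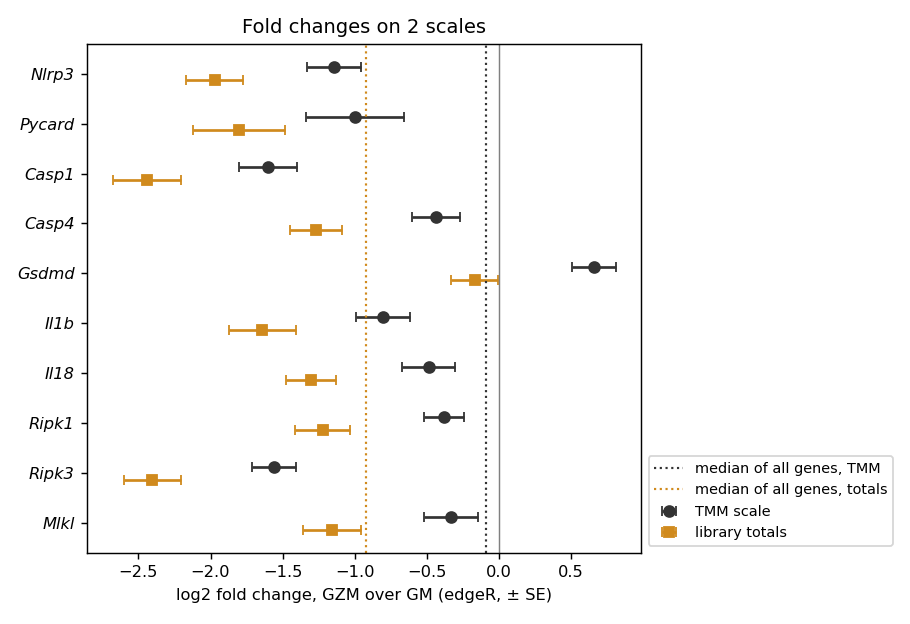
The horizontal axis is the log2 fold change of GZM over GM in edgeR, with SE as a bar, for each of the 10 genes down the page. Dark circles are on the TMM scale and orange squares use library totals, and dotted lines mark the median of all tested genes on each scale. Gsdmd lies right of the median on each scale, and Casp1 and Ripk3 lie farthest left.

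Measured against Gsdmd inside each library, where the scaling cancels, each of the other 9 genes had its highest GZM value below its lowest GM value. These ratios were chosen after the values were seen and are a description with no test. Of all tested genes, 77.3% had a lower log2 fold change than Gsdmd, so a fall against Gsdmd is usual for a gene here. The share of all genes separated by this ratio was not counted. Casp1 stood at 0.854, 0.553 and 0.697 times Gsdmd per base in GZM, against 2.91, 4.53 and 2.91 times in GM. Ripk3 stood at 0.489, 0.467 and 0.470 times Gsdmd in GZM, against 1.96, 2.97 and 1.88 times in GM. Among the other genes the GZM mean ran from 0.167 for Nlrp3 to 0.911 for Il18, and the GM mean from 0.566 for Mlkl to 2.16 for Il1b. Gsdmd thus had the highest level per base of the 10 genes in every GZM library, and ranked 8, 8 and 7 in GM 1, 2 and 3.

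**Figure D3:**
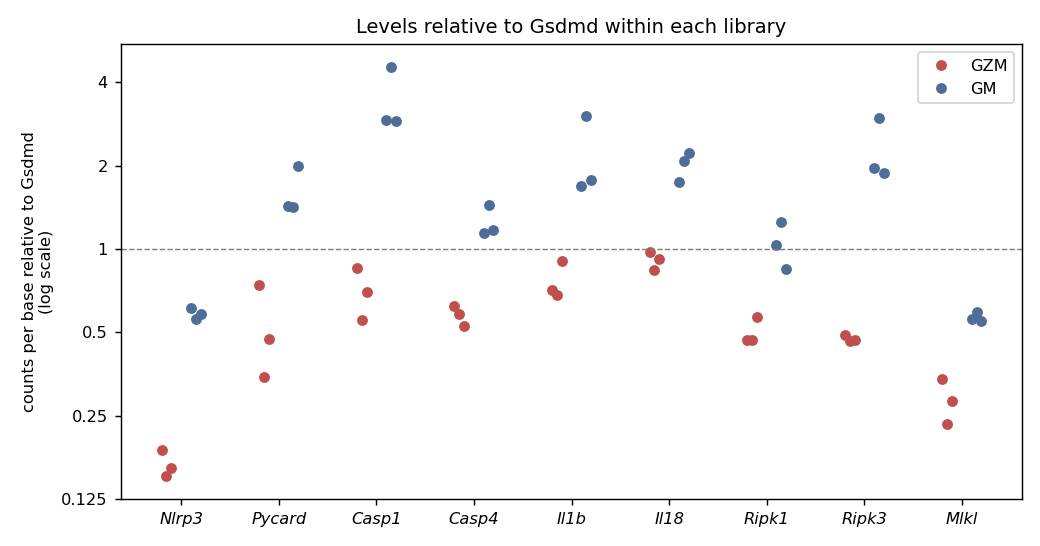
The vertical axis, on a log scale, is each gene's counts per base of exon divided by those of Gsdmd in the same library. Red points are GZM libraries and blue points GM libraries (3 each), and the dashed line marks a level equal to that of Gsdmd. For each of the 9 genes the GZM points lie below the GM points. Of all tested genes, 77.3% had a lower log2 fold change than Gsdmd.

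Both cytokine genes were lower in every GZM library, and 1 of them passed. Il1b (ENSRNOG00000004649), the fever-inducing cytokine made as an inactive precursor, stood at 27.7, 26.7 and 32.0 CPM in GZM, against 41.6, 61.7 and 47.5 CPM in GM. It fell by 0.80 on the log2 scale (SE 0.18, adjusted p = 0.0109), and the call was lost without GZM 2 (adjusted p = 0.0558). With library totals it fell by 1.64 (adjusted p = 0.00106). Il18 (ENSRNOG00000009848), which drives interferon gamma release from T cells and natural killer cells, stood at 27.6, 23.7 and 23.4 CPM in GZM, against 31.1, 30.6 and 42.9 CPM in GM. The groups were close but did not overlap, and the difference missed the threshold (adjusted p = 0.064, log2 fold change -0.49 ± 0.18 SE), while with library totals it passed (-1.30 ± 0.17, adjusted p = 0.000964). Il18 shares 5006 bases of its span with Bco2 and 1013 with Tex12, both on the opposite strand, so its count is uncertain if strand was not used in counting. The ratio of Il1b to Il18 per base was 0.724, 0.813 and 0.988 in GZM and 0.967, 1.45 and 0.797 in GM, and the groups overlapped.

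Along the necroptosis chain the middle kinase moved most. Ripk3 (ENSRNOG00000020465), the kinase that activates MLKL, stood at 27.4, 26.2 and 23.8 CPM in GZM, against 69.3, 86.7 and 72.1 CPM in GM. The groups were far apart relative to their spread, and the gene was 2.95-fold lower (log2 fold change -1.56 ± 0.15 SE, adjusted p = 0.00192), or -2.40 ± 0.20 with library totals (adjusted p = 0.000742). Its p-value on the TMM scale ranked 56 among the 14298 tested genes. Ripk1 (ENSRNOG00000017787), the upstream kinase that also supports survival signalling, stood at 59.5, 59.5 and 64.9 CPM in GZM, against 82.8, 82.8 and 73.7 CPM in GM. The groups did not overlap, and the difference lay just outside the threshold (log2 fold change -0.38 ± 0.14 SE, adjusted p = 0.0539). Mlkl (ENSRNOG00000042353), which carries out the membrane damage, stood at 29.9, 20.6 and 22.5 CPM in GZM, against 31.2, 27.2 and 33.3 CPM in GM. Here GZM 1 lay within the GM range, and the difference missed the threshold (adjusted p = 0.188, log2 fold change -0.33 ± 0.19 SE). With library totals, Ripk1 (-1.22 ± 0.19, adjusted p = 0.00137) and Mlkl (-1.16 ± 0.20, adjusted p = 0.00189) both passed as lower. Inside each library, the ratio of Ripk3 to Ripk1 per base was 1.04, 0.996 and 0.829 in GZM, against 1.89, 2.37 and 2.21 in GM. The ratio of Ripk3 to Mlkl was 1.45, 2.01 and 1.67 in GZM, against 3.51, 5.03 and 3.42 in GM, again without overlap. These ratios are a description with no test, and the share of all genes separated by such a ratio was not counted.

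The order of the genes by level was not the same in the 2 groups. In the deposited FPKM values, which are per exon length and per library total, Gsdmd led in GZM at 20.3 ± 0.41 and was followed by Il18 at 18.5 ± 1.76, Il1b at 15.5 ± 2.37 and Casp1 at 14.3 ± 3.33 (SD, n = 3 each). Each of these 4 overlapped its neighbour in the order. Casp4, Pycard, Ripk1 and Ripk3 followed between 11.7 and 9.64 FPKM, again with overlap from gene to gene. Mlkl at 5.77 ± 1.18 and Nlrp3 at 3.39 ± 0.443 came last in every GZM library, separate from each other and from Ripk3. In GM, Casp1 led in every library at 77.4 ± 14.6 FPKM, followed by Ripk3 at 51.0 ± 9.70, Il1b at 48.3 ± 12.5 and Il18 at 45.7 ± 3.74, of which the last 3 overlapped. Casp1 was separate from Ripk3. Pycard came next at 36.8 ± 7.84, overlapping both neighbours, then Casp4 at 28.2 ± 1.79, Ripk1 at 23.7 ± 4.00 and Gsdmd at 22.8 ± 2.25, the last pair overlapping. Nlrp3 at 13.3 ± 1.93 and Mlkl at 12.9 ± 1.02 were lowest and did not differ beyond their spread.

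Cell type markers were read beside these genes, against a background of 21.7% of all tested genes lower and 22.2% higher in GZM. In bulk tissue, fewer cells of a type and less RNA per cell cannot be told apart. The summed level of 15 macrophage and Kupffer cell markers (of 16 listed) was 2457 to 3462 CPM in GZM and 4192 to 7754 CPM in GM, with 7 genes lower, 2 higher and none at 0. The lower genes of that list included Lyz2 (-1.93), Itgam (-1.78), Cd163 (-1.14) and Adgre1 (-1.08). Clec4f (2.28) and Vsig4 (1.73) were the 2 higher genes, and Marco (1.02) did not pass (edgeR adjusted p = 0.282). Lyz2 was the largest part of each sum, at 950, 619 and 718 CPM in GZM and 2952, 2343 and 3406 CPM in GM. Without Lyz2 the sums of the groups would overlap. The genes named from this list were named after their values were seen. The 5 pan-leukocyte markers summed to 302 to 518 CPM in GZM and 640 to 1059 CPM in GM, with 3 lower. For T cells and natural killer cells, 15 of 16 markers were found. Their sum was 120 to 366 CPM in GZM and 386 to 757 CPM in GM, and 2 were lower, Cd8a and Klrk1. Cd8a stood at 68.9, 25.8 and 17.3 CPM in GZM and 138, 135 and 240 CPM in GM, and without it the sums would overlap. Cd3d, Cd3e and Cd3g overlapped between the groups and did not pass. The genes named from this list were likewise named after their values were seen. Neutrophil markers summed to 137 to 190.0 CPM in GZM and 153 to 257 CPM in GM, with 12 of 13 found and 1 of 9 tested genes lower. Ltf was not tested, with 0 counts in every GZM library and in GM 2, and 1 count in GM 1 and GM 3. The 9 dendritic cell markers ran from 419 to 1726 CPM in GZM and from 1799 to 3528 CPM in GM, with 2 lower, Itgax and Ciita. Cd74 made up most of each sum, at 1628, 372 and 453 CPM in GZM and 1621, 1647 and 3333 CPM in GM. Its groups overlapped and it did not pass (edgeR adjusted p = 0.0907). Xcr1 (0.55) and Clec9a (0.07) did not pass either. These 5 genes were named after their values were seen. Endothelial markers, 9 of 10 found, were the other way on the TMM scale, at 460.4 to 549.6 CPM in GZM and 251 to 412 CPM in GM. Of these genes, 5 were higher and 1 lower. In the deposited FPKM, per library total, Kdr and Tek of the 5 were not higher in GZM. Kdr averaged 8.43 in GZM and 8.58 in GM, and Tek 5.30 and 5.94. Stab2 (4.92 and 2.05) and Lyve1 (21.1 and 12.2) stayed higher in every GZM library than in any GM library. Egfl7 was higher in GZM on average (21.3 and 16.0), but GM 1 at 20.6 lay above GZM 2 at 19.4. Summed markers of B cells and plasma cells, stellate cells and cholangiocytes overlapped between the groups. The 12 markers of dividing cells were all lower, at 210 to 242 CPM in GZM and 571 to 1501 CPM in GM. The part of these shifts in the values of the 10 genes was not tested.

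The genes whose pattern over the 6 libraries was most like that of Casp1, by Pearson's r of log2 CPM among 12605 named genes, were Ccdc106 (0.998), Arhgef2 (0.998) and Slfn13 (0.997). For Gsdmd they were Slc18b1 (0.998), Rgl3 (0.997) and Rab38 (0.997), and for Mlkl they were Pik3ip1 (0.993), Lrmp (0.992) and Naaa (0.99). Such values were common over libraries that fall into 2 groups: 528 genes exceeded 0.95 with Casp1, 1404 with Gsdmd and 93 with Mlkl. These correlations are a description over libraries that share their group, with no test.

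Of 17 other inflammasome sensors and regulators tested, 6 fell and 2 rose, so that 47.1% were called, near the 44% of all tested genes. Their median log2 fold change was -0.54 against -0.09 over all tested genes, and -1.37 against -0.92 with library totals. Nlrp1a, of the NLRP1 sensor family, was lower at 13.3 ± 2.79 CPM in GZM and 38.0 ± 2.39 CPM in GM (mean ± SD over 3 libraries). Its log2 fold change was -1.51 ± 0.19 SE (adjusted p = 0.00236). Mefv, which encodes the sensor pyrin, fell by 1.40 and its binding partner Pstpip1 by 1.00. Nlrc4, the adaptor-like sensor used for bacterial flagellin, fell by 0.76; of the fits that left out 1 library, the call held only without GM 2, and in the others the adjusted p ran from 0.0613 to 0.0999. The list's count of 8 calls was 5 without GZM 2, GZM 3, GM 1 or GM 3. Over all genes, 3181 were higher and 3104 lower of 14298 tested with all libraries. Without GZM 2 these were 2112 and 1665 of 14843, and without GZM 3 2411 and 1954 of 14716. Without GM 1 they were 2195 and 2071 of 14494, and without GM 3 3592 and 3432 of 14618. Nlrp12 and P2rx7 rose. Nlrp12, described as a restraint on NF-kB signalling, stood at 32.2, 40.0 and 28.5 CPM in GZM, against 2.46, 0.809 and 7.40 CPM in GM (log2 fold change 3.25 ± 0.66 SE, adjusted p = 0.00687). The size of this rise depended on GM 3, without which the log2 fold change was 4.41. The ATP-gated channel gene P2rx7, which triggers NLRP3 by letting potassium out of the cell, stood at 26.3, 20.6 and 21.3 CPM in GZM, against 6.61, 3.49 and 9.51 CPM in GM (log2 fold change 1.80 ± 0.35 SE, adjusted p = 0.00605). Both kept their direction and call with library totals, at 2.49 and 1.00.

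Genes that execute or follow pyroptosis beside Gsdmd showed few calls. Of 9 tested genes, 2 rose and none fell, a share of 22.2% called beside 44% of all tested genes, and the median was 0.28, or -0.56 on the scale of library totals. Dpp9, whose product holds NLRP1 inactive, was higher by 0.41 (adjusted p = 0.0369) but stood at -0.43 on the scale of library totals, without passing (adjusted p = 0.0549). Its call was also lost without GM 1, GZM 1, GZM 2 or GZM 3 (adjusted p from 0.0838 to 0.118). Ninj1, which ruptures the membrane after pore formation, was named after its values were seen: 169, 173 and 164 CPM in GZM, against 91.8, 100.3 and 151 CPM in GM, without passing (0.56 ± 0.22 SE, adjusted p = 0.0671). Gsdme, another gasdermin gene, had at most 19 counts in a library.

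In the interleukin-1 family, 4 of 12 tested genes rose and 3 fell, so that 58.3% were called beside 44% of all tested genes, and the median of 0.13 became -0.65 on the scale of library totals, -0.08 without GM 1 and -0.05 without GM 2. Il1a, the ligand that shares the interleukin-1 receptor with the product of Il1b, stood at 19.2, 14.5 and 20.8 CPM in GZM, against 4.63, 5.79 and 8.33 CPM in GM. It rose by 1.54 ± 0.28 SE (adjusted p = 0.00475), and by 0.74 with library totals (adjusted p = 0.0379), opposite to Il1b on both scales. The signalling receptor Il1r1 rose by 1.84 ± 0.43 (adjusted p = 0.0119), unevenly, at 105, 259 and 266 CPM in GZM and 65.0, 32.2 and 78.4 CPM in GM. Its partner chain Il1rap rose by 1.79 and the dampening receptor Sigirr by 2.09. The interleukin-18 receptor chain gene Il18rap stood at 4.81, 3.87 and 4.16 CPM in GZM, against 20.0, 21.3 and 17.0 CPM in GM, and fell by 2.18 on the log2 scale (SE 0.21, adjusted p = 0.00192). Il1rl1, the receptor of interleukin-33, fell by 1.64. The decoy receptor gene Il1r2 (0.71, adjusted p = 0.444) and the antagonist gene Il1rn (-0.32, adjusted p = 0.506), both named after their values were seen, did not pass.

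Among receptors, adaptors and regulators of necroptosis, 6 of 32 tested genes rose and 5 fell, a share of 34.4% beside 44% of all tested genes, and the median was -0.02, or -0.85 with library totals. The 11 calls of this list became 5 without GZM 2 or GZM 3 and 7 without GM 1 or GM 2. Calls over all genes dropped too, from 3181 higher and 3104 lower of 14298 tested. They were 2112 and 1665 of 14843 without GZM 2, and 2411 and 1954 of 14716 without GZM 3. Without GM 1 they were 2195 and 2071 of 14494, and without GM 2 2801 and 2605 of 14454. The death receptor gene Fas rose by 1.32 ± 0.27 SE (adjusted p = 0.00699), at 34.2 ± 10.6 CPM in GZM and 13.8 ± 2.36 CPM in GM (SD, n = 3 each), but not with library totals (0.50, adjusted p = 0.123). Tnfrsf1a, the main receptor of tumour necrosis factor, rose by 0.76, the linear-ubiquitin protease gene Otulin by 0.79, the phosphatase gene Ppm1b, which acts on RIPK3, by 0.74 and the kinase gene Ikbkb by 0.62. With library totals these 4 genes lay between -0.20 and -0.0397 and none passed; Ikbkb also lost its call without GZM 2, GZM 3 or GM 1 (adjusted p from 0.0598 to 0.0678). Cyld, the deubiquitinase that favours RIPK1-dependent death, fell by 0.87 (adjusted p = 0.00619) and by 1.71 with library totals. Casp8, the protease that restrains necroptosis by cleaving RIPK1 and RIPK3, was named after its values were seen and fell by 0.57, at 17.2, 13.5 and 19.2 CPM in GZM against 25.6, 23.8 and 24.98 CPM in GM (adjusted p = 0.036). Tnf itself was not tested, with at most 1 count in any library.

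Of 24 tested genes that prime the inflammasome, 8 fell and 4 rose, so that 50% were called, near the 44% of all tested genes, with a median of -0.02 that lay at -0.86 with library totals. Without GZM 2 or GZM 3, 5 genes of the list passed in place of 12. Calls over all genes dropped too, from 3181 higher and 3104 lower of 14298 tested. They were 2112 and 1665 of 14843 without GZM 2, and 2411 and 1954 of 14716 without GZM 3. Tlr4, the lipopolysaccharide receptor, fell by 1.63 ± 0.19 SE (adjusted p = 0.00218), at 10.9, 7.54 and 10.1 CPM in GZM and 30.5, 27.9 and 30.5 CPM in GM. Tlr2, which senses bacterial lipoproteins, fell by 1.07. Among genes of the interferon response, Gbp2, a guanylate-binding protein known from mice to help caspase-11 reach bacterial lipopolysaccharide, fell by 2.42, Irf1 by 1.28 and Irf8 by 0.97. Irf8 lost its call without GZM 2 (adjusted p = 0.059) or GZM 3 (adjusted p = 0.0558). The 4 genes that rose, named after their values were seen, were the kinase-family genes Irak2 (0.83) and Irak3 (1.08) and the NF-kB regulators Nfkbia (0.60) and Nfkbiz (0.90). With library totals none of these 4 passed, and Nfkbia stood at -0.24 (adjusted p = 0.326). Gbp5 (-0.26, adjusted p = 0.504) and Irf2 (0.06, adjusted p = 0.791), likewise named after their values were seen, did not pass.

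**Figure D4:**
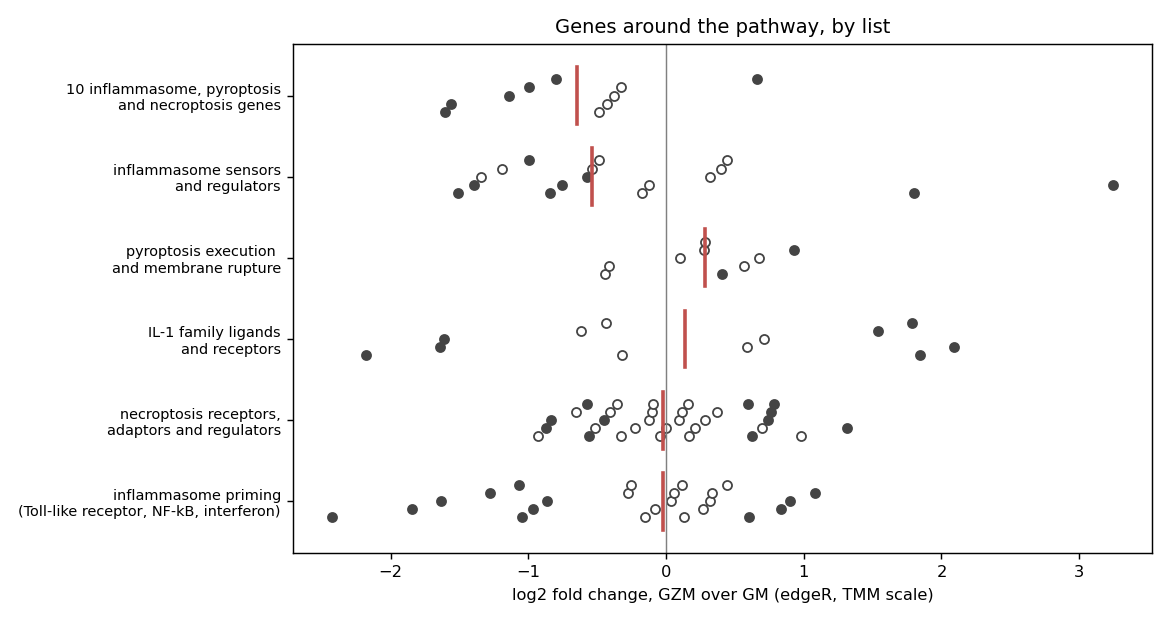
Each point is a tested gene, placed by its log2 fold change of GZM over GM on the TMM scale, with 1 row per list and the 10 genes of inflammatory and lytic death on top. Filled points passed at an adjusted p under 0.05, open points did not, and the red bar marks the list median. Medians run from -0.64 for the 10 genes to 0.28 for pyroptosis execution, and Nlrp12 is the point farthest right at 3.25.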

How the data were processed

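The deposited table holds, per the file headers, a read count and an FPKM value for each gene in each of the 6 libraries. The counts are as the authors deposited them, whole numbers with no normalization. Recomputing the deposited FPKM from the counts, exon lengths and library totals gave all 195738 values within 0.01. Per the labels' protocols, RNA was enriched for polyadenylated transcripts and made into strand-specific libraries with dUTP. The aligner, the counter and the use of strand in counting were not given in the sources used here. The submitters' processing notes name the build mRatBN 7.2, but positions in the table reach 282724300 on chromosome 1, beyond the end of that chromosome in this build, so the build of the printed table positions is not settled. Columns of the GZM samples carry the letters as ZGM.

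Samples were grouped by their titles. Genes passing edgeR's default low-count filter were tested, GZM against GM, by quasi-likelihood F-test in edgeR 4.0.16 under R 4.3.3, with TMM factors and no covariate, and Benjamini-Hochberg adjustment over all tested genes at 0.05. The SE is the one implied by the quasi-F value. The test was tested on simulated counts. The 10 genes, the lists around them and the alternatives were chosen with earlier results of these data known. Named genes were the 10, from each list the called genes of smallest p up to 6, and for Casp1, Gsdmd and Mlkl the 3 genes of highest Pearson correlation (log2 CPM, prior count 2); others are said to be named after their values were seen, and some genes the rule names are not reported here. The 14 alternatives used DESeq2 1.42.0, limma 3.58.1 on log2(FPKM + 0.1) and log2(FPKM + 1), other scalings, no filter, the replicate block and left-out libraries. Promoters are from RefSeq. Counts of any pair of libraries in a group lay further apart than sampling noise (chi-square per degree of freedom from 11.2 to 209), so each library was counted as 1 sample.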

Additional observations from a re-analysis of the deposited data

How the results depend on the processing

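Casp1, Ripk3 and Nlrp3 passed as lower in GZM in all 14 alternatives, Il1b in 13 and Pycard in 10. With library totals, and with limma on log2(FPKM + 0.1) and on log2(FPKM + 1), which share that scale, Casp4 passed at -1.27, -1.26 and -1.20, Il18 at -1.30, -1.30 and -1.26, Ripk1 at -1.22, -1.20 and -1.14, and Mlkl at -1.16, -1.16 and -1.05, on the log2 scale and in that order. Gsdmd turned to -0.17, -0.16 and -0.15 in these settings without passing. Each gave 9 of the 10 genes lower, and 9828, 9922 and 9843 genes called in all, of which 86.6%, 86.3% and 86.2% were lower, against 49.4% of 6285 in the TMM fit. In the same 3 settings Dpp9 turned to -0.43, -0.42 and -0.41, Otulin to -0.0397, -0.0427 and -0.0411, Ppm1b to -0.0864, -0.0851 and -0.0809, Tnfrsf1a to -0.0722, -0.0728 and -0.0718 and Ikbkb to -0.20, -0.21 and -0.20. These shifts follow from the scale, which moves the median of all genes by -0.83 with library totals.

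Leaving out 1 library at a time, Gsdmd ran from 0.56 to 0.79, Pycard from -1.37 to -0.67 and Il1b from -0.93 to -0.63, while 3 to 6 of the 10 genes passed, 3 to 5 of them lower, and 3777 to 7024 genes passed in all. The lowest numbers were without GZM 2, and their cause was not tested. Without both GM 3 and GZM 1, 6 of the 10 passed, as in the TMM fit, beside 3645 genes higher and 3353 lower of 14593 tested. With the replicate number as a block, the log2 fold changes of the 10 genes ran from -1.62 (Casp1) to 0.67 (Gsdmd) with 6 calls. Over all 14298 tested genes, the block fit called 2676 higher and 2490 lower, in place of 3181 and 3104. The replicate numbers share no stated origin. Deviations of same-numbered libraries correlated at -0.14, 0.16 and -0.274. With 3 libraries a group, these values cannot decide whether the replicate numbers pair the samples. List counts moved by more than 1.5 times under the block: 7 necroptosis regulators in place of 11, 5 inflammasome regulators in place of 8, with Nlrc4 lost (adjusted p = 0.067), and 1 pyroptosis gene in place of 2, with Dpp9 lost (adjusted p = 0.113). Counts of 95 to 2375 reads per library lay behind the values of the 10 genes.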
